A study of Mus musculus with 16 samples.

Results

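The genes described here were the potassium channel genes of the mouse, taken as every gene whose symbol starts with Kcn. Of 19505 genes with a named probe set on the array, 90 carried such a symbol. Kcnn2 was left out, which left 89 members, each read by a single probe set. Potassium channels let potassium leave the cell, so they set the resting potential, end each action potential and shape how a neuron fires. The family holds pore-forming subunits opened by voltage, calcium, sodium or G proteins, inward rectifiers and leak channels, silent subunits that work only together with another pore subunit, and auxiliary subunits that bind to a pore and change its gating. In olfactory sensory neurons, the ciliated cells that detect odorants in the nose, potassium currents return the cell to rest after the odorant response.

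All animals were S100a5-tauGFP mice, in which GFP is made under the control of S100a5, a gene that is transcribed in olfactory sensory neurons that have been active. The 24 mice were of both sexes and 7 to 12 weeks old. Each was kept alone for 40 h in a chamber under a flow of 3.1 L/min of cleaned air, and from 26 h onward it received pulses of octanoic acid, an 8-carbon fatty acid odorant, or of filtered air as vehicle, for 10 s every 20 min. The olfactory mucosa, the sheet of tissue that holds these neurons and their supporting cells, was dissociated from 3 mice at a time and sorted by flow cytometry into GFP+ and GFP- cells. There were 4 groups of 4 arrays: GFP+ and GFP- cells after octanoic acid, and GFP+ and GFP- cells after clean air. The 16 Clariom S arrays came from 8 pools, each split into a GFP+ and a GFP- sample, so n is 4 pools for each treatment. Since animals were pooled, the spread between arrays is the spread between pools and not between mice. In sorted cells measured in bulk, fewer cells of a type and less RNA per cell cannot be told apart.

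The gate was defined by the reporter, and S100a5 followed it, with 16.60 ± 0.34 in GFP+ and 15.07 ± 0.32 in GFP- cells after octanoic acid, and 16.45 ± 0.23 in GFP+ and 15.13 ± 0.18 in GFP- cells after clean air (log2 signal, mean ± SD, n = 4 pools). Omp, the protein that marks mature olfactory neurons, averaged 18.84 and 18.67 after octanoic acid and 18.83 and 18.69 after clean air. Its differences did not pass the test, and its signal was high in GFP- as well as in GFP+ cells. Markers of several other cell types were higher in GFP- cells. All 9 leukocyte, all 6 neutrophil and all 5 lymphocyte markers measured fell in GFP+ cells under each treatment, as did 2 of 2 erythroid markers. Microvillous and tuft cell markers fell in 7 of 8 with octanoic acid and in 8 of 8 with clean air. Immature neuron markers fell in 7 of 12 with each treatment, and dividing cell markers in 3 and then 4 of 4. Fewer sustentacular markers fell, 2 and then 3 of 9. With each treatment 3 of 8 Bowman gland, 3 of 7 basal cell, 1 of 6 ensheathing glia and 0 of 5 fibroblast and bone markers fell. Of 4 respiratory epithelium markers, 1 fell with each treatment, and Muc5ac, at background, rose by 0.99 with octanoic acid. Of 12 mature neuron markers, 2 rose with each treatment, Ano2 and Ckb, and 0 fell. Beside these list counts, 6.26% of all genes were called higher and 10.9% lower with octanoic acid. With clean air the shares were 5.83% and 9.58%. Background was set at 6.20, the median of 5222 negative control probe sets over all arrays. On the 4 octanoic acid pools those controls themselves ran 0.46 higher in GFP+ than in GFP- samples at the median (83.8% of them positive). On the clean air pools they ran 0.10 higher (60.4%). Counts with the arrays centred on these controls are given below, and the cause of the control difference was not tested. The GFP+ array of octanoic acid pool 3 correlated least with its group (mean r 0.976, against 0.986 for each of the other 3) and had the highest control median of the GFP+ arrays, 6.71, and the GFP- array of clean air pool 4 had the highest of the GFP- arrays, 6.77.

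Most of the family was dim in this tissue. By group means, 29 members lay above background in all 4 groups, 9 in some groups, and 51 in none. The share of members with a mean over all arrays above background was 32.6%, against 59.8% of all genes. By that mean, 13 members lay above 10.4, the 95th percentile of the controls. Kcng1, Kcnh2, Kcnj2, Kcnk1 and Kcnn3, given with a fold below, were not among them. The members above background in every group covered nearly every branch of the family. They were Kcna2, Kcna5, Kcna6, Kcnb2 and Kcnc4 among the voltage-gated pores, Kcng1 and Kcns3 among the silent subunits, Kcnh2, Kcnh3, Kcnh4 and Kcnh7 of the ether-a-go-go group, and Kcnq1 of the KCNQ group. Among the inward rectifiers they were Kcnj2 and Kcnj5, and among the tandem-pore leak channels Kcnk1, Kcnk4, Kcnk7 and Kcnk10. Kcnn1 and Kcnt1 were those of the calcium- and sodium-activated channels, and Kcnu1 was also in the set. The auxiliary members were Kcnab2, Kcnip4, Kcnmb1, Kcnmb2, Kcnmb3, Kcnmb4 and Kcnrg, and Kcnq1ot1, a noncoding RNA made from within the Kcnq1 locus, completed the set. All 3 Kcnd genes and all 5 Kcne genes were at or below background in every group.

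Which potassium channel genes distinguish the reporter-marked cells was asked by subtracting the GFP- from the GFP+ array of the same pool and testing these differences with limma across all 19505 genes (Benjamini-Hochberg adjusted p below 0.05). With octanoic acid, 7 of 89 members had more signal in GFP+ cells (7.87%) and 3 had less (3.37%), while over all genes 6.26% were higher and 10.9% lower. With clean air, 11 were higher (12.4%) and 5 lower (5.62%), over a background of 5.83% higher and 9.58% lower. The share of members called higher with octanoic acid was thus near that of all genes, and with clean air it was above it. The same all-gene shares are the background for the counts by subfamily given below, each of which rests on few genes. In all, 18 members were called under at least 1 treatment and 71 under neither. Kcna1, Kcnab2, Kcng1, Kcnh3 and Kcnmb3 were higher under both treatments, and Kcnj3, Kcnk6 and Kcnn4 were lower under both. No member was called in opposite directions. Kcnc2 and Kcnn1 passed only with octanoic acid, and Kcna6, Kcnc4, Kcnh2, Kcnh4, Kcnj2, Kcnn3, Kcnk1 and Kcnk5 passed only with clean air, though none of the differences between treatments passed its own test, as given further on. Of the calls, 2 of 7 higher and 3 of 3 lower with octanoic acid, and 1 of 11 higher and 4 of 5 lower with clean air, concerned genes that were at background in GFP+ and GFP- samples alike.

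**Figure D1:**
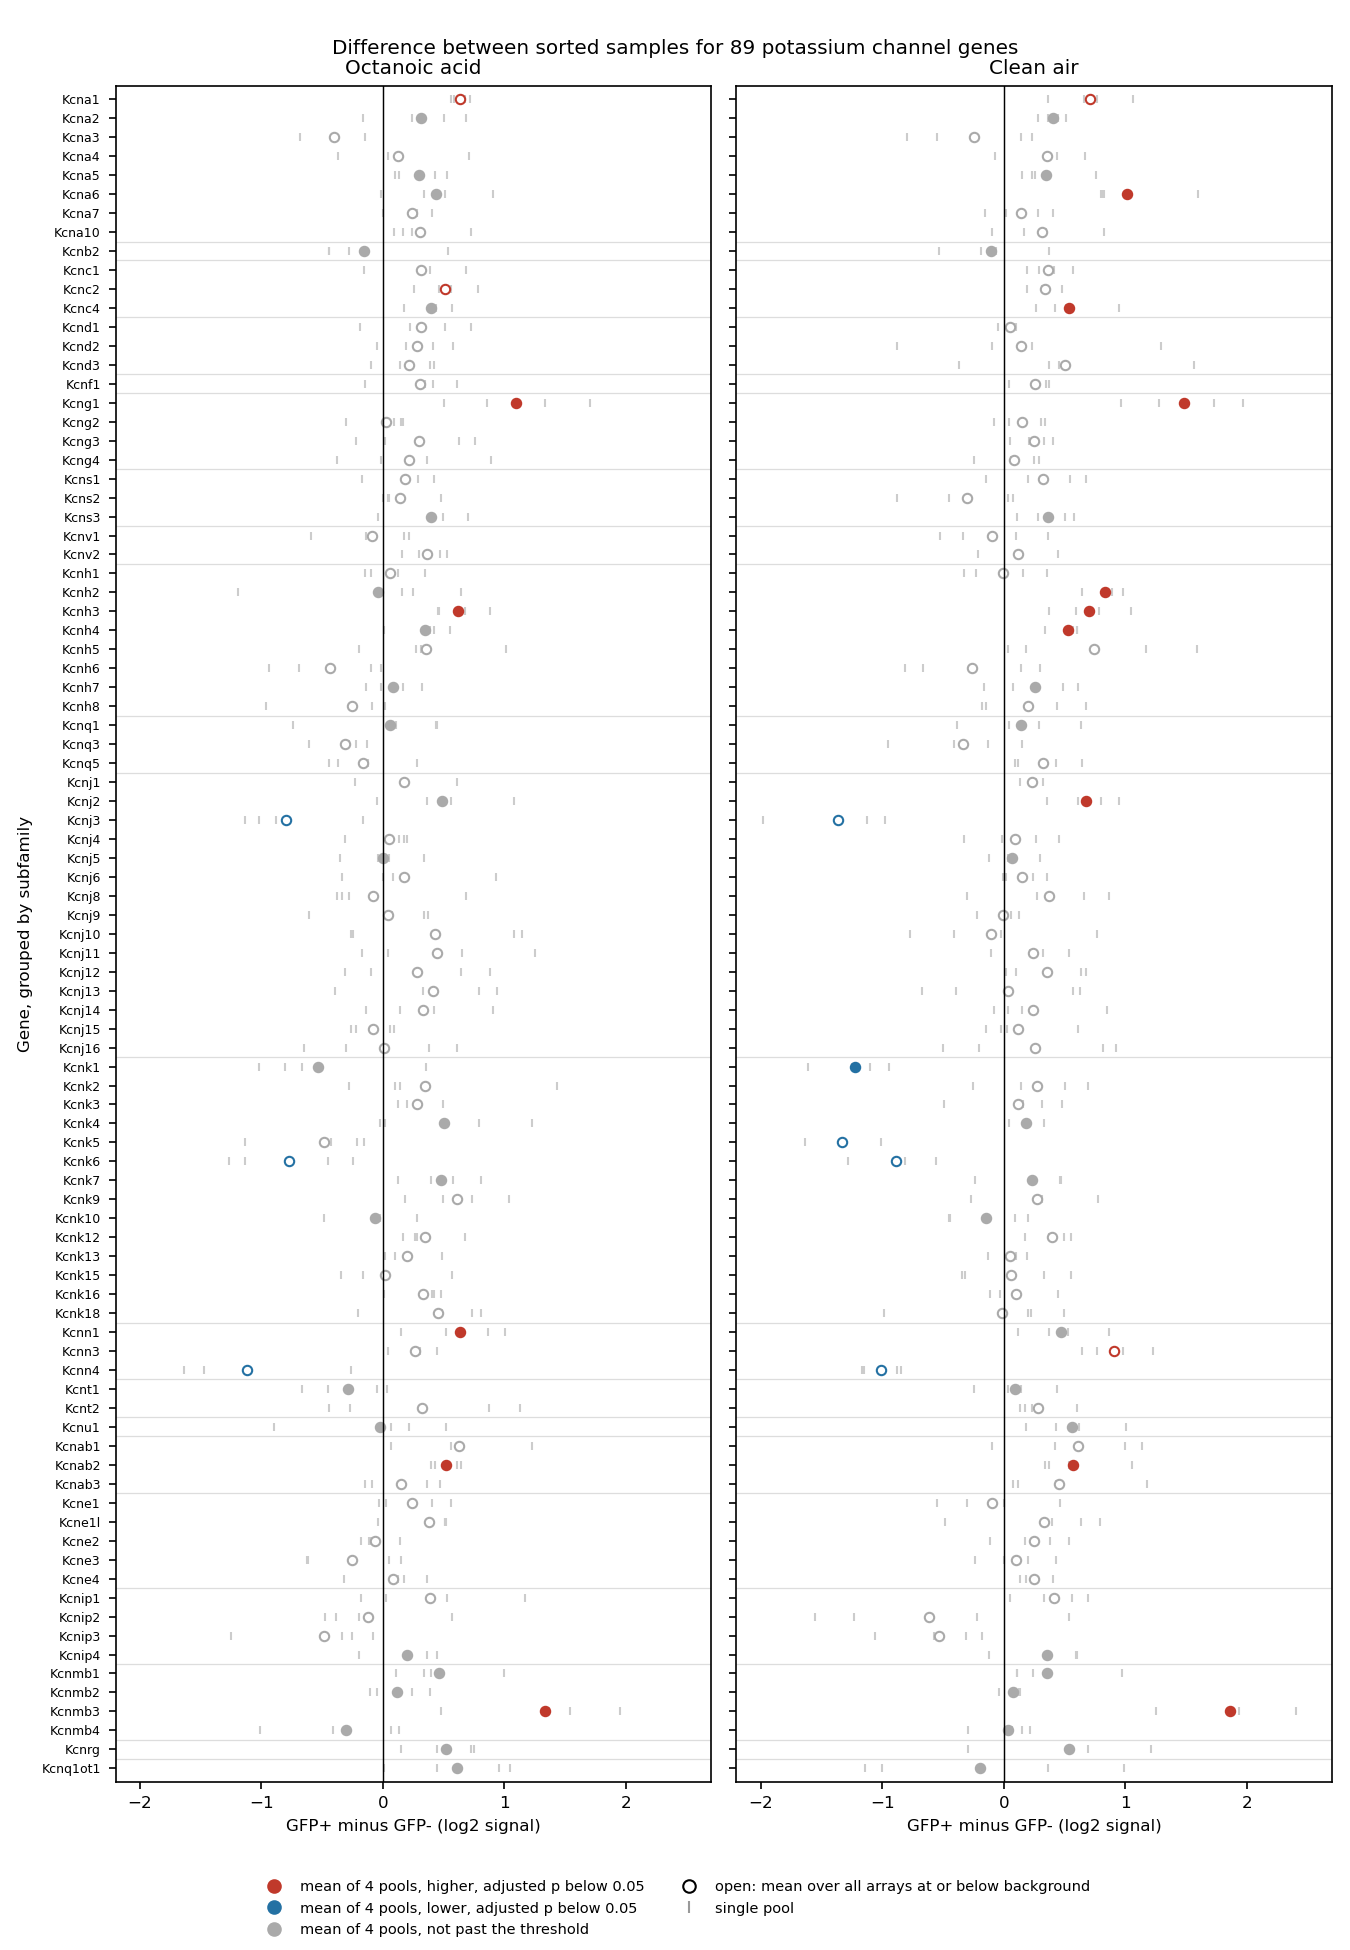
The GFP+ minus GFP- difference in log2 signal (x axis) for the 89 members (y axis, grouped by subfamily) with octanoic acid (left) and clean air (right). Circles are means of 4 pools and ticks single pools, coloured where the adjusted p was below 0.05, with open circles for members whose mean over all arrays was at or below background. Kcnmb3 and Kcng1 lie farthest to the right in both panels, Kcnn4 lies farthest to the left with octanoic acid, and Kcnj3 with clean air.

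The GFP+ and GFP- arrays did not overlap for 8 members that were higher (8.99%, against 7.25% of all genes) and 2 that were lower (2.25%, against 10.7%) with octanoic acid. With clean air they did not overlap for 16 members that were higher (18%, against 9.82%) and 6 that were lower (6.74%, against 10.7%). The median member difference was 0.24 under each treatment, against 0.11 for all genes. These counts moved with the scaling of the arrays. When each array was centred on its median over all genes, the all-gene median difference became 0.42 with octanoic acid and 0.38 with clean air. Then 46 members were called higher and 1 lower with octanoic acid, and 42 higher and 5 lower with clean air. Of all 19505 genes, 7791 were then higher and 1715 lower with octanoic acid, and 6082 higher and 1571 lower with clean air. Centred on the negative controls, an alternative chosen after seeing the data, the all-gene medians were -0.35 and -0.01. The octanoic acid split then became 0 higher and 10 lower, and the clean air split 3 higher and 5 lower. For all genes the splits were 304 higher and 3479 lower with octanoic acid, and 463 higher and 1864 lower with clean air. None of the 26 calls changed sign under these scalings. Octanoic acid pool 3 and clean air pool 4 were also left out, with the values as deposited. This gave 4 members higher and 3 lower with octanoic acid, and 8 higher and 5 lower with clean air. The all-gene counts were then 821 higher and 1814 lower with octanoic acid, and 681 higher and 1551 lower with clean air.

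**Figure D2:**
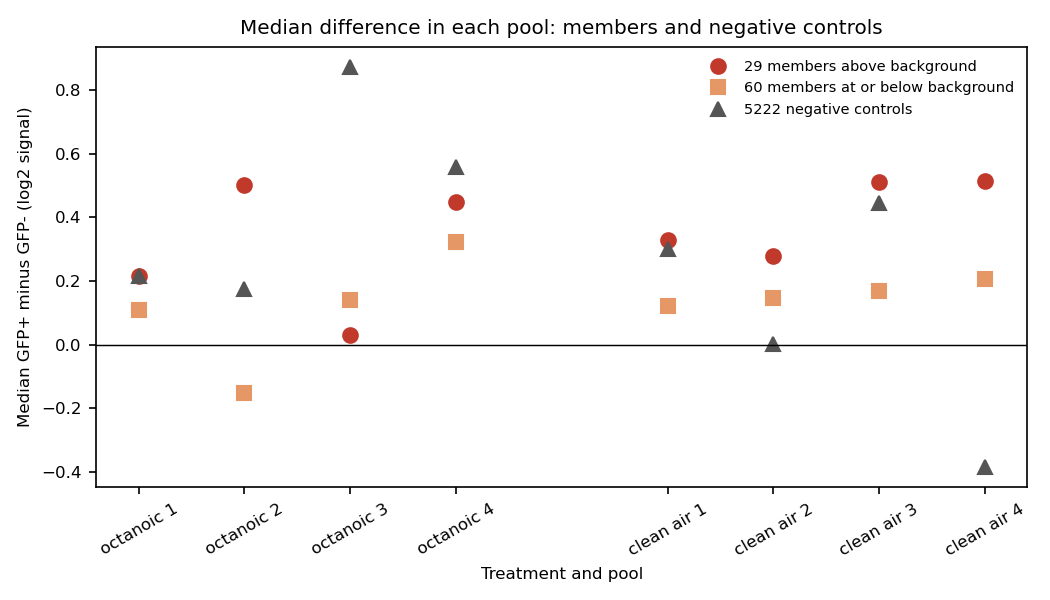
Median GFP+ minus GFP- difference in log2 signal (y axis) in each of the 8 pools (x axis) for the 29 members above background, the 60 members at or below it and the 5222 negative controls. In octanoic acid pool 3 the controls stood at 0.87 and the brighter members at 0.03, and in clean air pool 4 the controls stood at -0.39 and the brighter members at 0.52.

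Among the auxiliary subunits, the largest difference of the family was in Kcnmb3, which encodes the beta-3 subunit of the large-conductance calcium-activated (BK) potassium channel and changes how fast that channel inactivates. After octanoic acid Kcnmb3 read 13.92, 12.89, 11.23 and 13.46 in GFP+ cells, against 12.38, 10.95, 10.76 and 12.09 in GFP- cells of pools 1 to 4. After clean air it read 13.51, 12.49, 12.43 and 13.47 in GFP+ cells, against 11.58, 10.65, 11.18 and 11.07 in GFP- cells. Every pool was higher in GFP+ cells, the clean air groups did not overlap, and the octanoic acid groups overlapped because GFP+ pool 3 lay below 2 GFP- arrays. Kcnmb3 rose in GFP+ cells by 1.33 ± 0.62 with octanoic acid (log2, SD, n = 4 pools), a 2.52-fold change with an adjusted p of 0.00197 in limma, and by 1.86 ± 0.47 with clean air, 3.62-fold with an adjusted p of 0.000171. Leaving out any single pool kept both calls, with the octanoic acid difference between 1.13 and 1.62 and the clean air one between 1.68 and 2.06. With negative-control centring the octanoic acid difference was 0.88 and its adjusted p 0.0596, and in a fit without the pairing of samples within a pool the adjusted p was 0.0749.

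The base composition just before the start of Kcnmb3 is shown because this gene had the largest difference. The window runs from 250 bases before to 50 bases after the annotated start in the RefSeq promoter table, at chr3:32491920-32492219 on the minus strand of GRCm38.p6, and capitals mark its 8 CG pairs.
Kcnmb3: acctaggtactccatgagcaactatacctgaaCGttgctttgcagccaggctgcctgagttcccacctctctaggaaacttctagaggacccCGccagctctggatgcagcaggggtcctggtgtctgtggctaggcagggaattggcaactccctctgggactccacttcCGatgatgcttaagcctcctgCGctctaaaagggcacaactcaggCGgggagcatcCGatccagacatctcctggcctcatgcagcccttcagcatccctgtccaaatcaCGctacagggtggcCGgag
Of the 89 members, 69 matched 94 such promoter windows. Their median was 9 CG pairs and 57.8% G and C, against 7 pairs and 52.7% over all 32851 windows of the same length. The letters TAATTA, a core read by homeodomain factors, stood in 0 of the 94 and in 5.29% of all windows, and TGACGTCA, the cyclic AMP response element, in 0 of the 94 and in 1.79% of all. Each reads the same on both strands, and a match of one motif cannot overlap a match of the other.

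The other BK subunits differed from Kcnmb3. Kcnmb2, the beta-2 subunit, averaged 13.41 ± 0.21 in GFP+ and 13.30 ± 0.31 in GFP- cells after octanoic acid, and 13.44 ± 0.09 and 13.37 ± 0.05 after clean air, with adjusted p of 0.616 and 0.796. Kcnmb4, the beta subunit best known from brain, had differences of -0.31 ± 0.53 and 0.03 ± 0.23, and Kcnmb1, the beta subunit of smooth muscle, 0.46 ± 0.38 and 0.36 ± 0.41, and neither passed the test. Kcnab2 encodes a cytoplasmic beta subunit that binds Kv1 channels. It read 16.02, 16.17, 15.93 and 16.19 in GFP+ and 15.59, 15.56, 15.54 and 15.55 in GFP- cells after octanoic acid, and 16.10, 15.93, 16.17 and 15.93 in GFP+ and 15.73, 15.59, 15.64 and 14.87 in GFP- cells after clean air. The groups did not overlap under either treatment. Kcnab2 rose by 0.52 ± 0.12 (1.43-fold, adjusted p 0.0436) with octanoic acid and by 0.57 ± 0.33 (1.49-fold, adjusted p 0.0289) with clean air. The octanoic acid call was lost without any of 7 single pools (adjusted p 0.0582 to 0.155) and the clean air call without clean air pool 1, 3 or 4 (0.0553 to 0.158).

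Kcnip4, a calcium-binding protein that attaches to Kcnd pores, lay far above background, with 13.82 ± 0.42 in GFP+ and 13.62 ± 0.19 in GFP- cells after octanoic acid and 13.86 ± 0.16 and 13.50 ± 0.36 after clean air, and passed neither test (adjusted p 0.466 and 0.206). Its known partners Kcnd1, Kcnd2 and Kcnd3 were all at or below background. Kcnrg, a cytoplasmic regulator of Kv channels, differed by 0.51 ± 0.28 and 0.53 ± 0.63 and passed neither test (adjusted p 0.138 each), though without clean air pool 4 its clean air difference was 0.81 with an adjusted p of 0.0255. The 17 auxiliary members thus gave 2 that rose, the same pair under each treatment, and 15 that passed no test, among them all 5 of the Kcne genes, which encode small single-span subunits.

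Among the silent subunits, which assemble with Kcnb pores and change their gating without forming channels of their own, Kcng1 stood out. Its mean over all arrays was 7.81, above background but below 10.4, the 95th percentile of the controls. In GFP+ cells after octanoic acid Kcng1 read 8.88, 8.10, 7.71 and 9.07, against 7.54, 7.60, 6.86 and 7.37 in GFP- cells. After clean air the values were 8.88, 7.82, 8.19 and 8.99 in GFP+ cells, against 7.15, 6.86, 6.91 and 7.02 in GFP- cells. All GFP+ arrays lay above all GFP- arrays of their treatment. Kcng1 rose by 1.10 ± 0.53 (2.14-fold, adjusted p 0.00434 in limma) with octanoic acid and by 1.49 ± 0.45 (2.80-fold, adjusted p 0.000522) with clean air. No single pool decided either call, and negative-control centring gave 0.64 with an adjusted p of 0.122 for octanoic acid. Kcns3, the other silent subunit above background, averaged 13.10 ± 0.40 in GFP+ and 12.71 ± 0.17 in GFP- cells after octanoic acid and 13.23 ± 0.08 and 12.86 ± 0.16 after clean air. Its clean air groups did not overlap, yet it passed neither test (adjusted p 0.125 and 0.171). Kcnb2, a pore of the kind these subunits join, differed by -0.16 ± 0.47 and -0.10 ± 0.37 and did not pass. The other 8 of 10 silent subunits were at or below background.

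Of the 15 voltage-gated pore genes, 2 rose with octanoic acid and 3 with clean air, and none fell. Kcna6, a Kv1 pore that opens at low voltages, read 11.85, 11.93, 11.10 and 11.64 in GFP+ and 11.51, 11.02, 11.12 and 11.12 in GFP- cells after octanoic acid. After clean air it read 12.19, 11.66, 12.10 and 11.72 in GFP+ and 11.39, 10.84, 11.28 and 10.12 in GFP- cells. The groups were apart with clean air and overlapped with octanoic acid, where GFP+ pool 3 was as low as the GFP- arrays. Kcna6 rose by 1.01 ± 0.39 with clean air (2.01-fold, adjusted p 0.00304), a call kept in all 17 alternative settings, and differed by 0.43 ± 0.38 with octanoic acid (adjusted p 0.151). The other bright Kv1 pores had smaller differences in the same direction: Kcna5 averaged 14.44 ± 0.10 in GFP+ and 14.14 ± 0.21 in GFP- cells after octanoic acid and 14.39 ± 0.08 and 14.04 ± 0.34 after clean air, and passed neither test (adjusted p 0.230 and 0.176). Kcna2, a pore of axons, differed by 0.31 ± 0.37 and 0.40 ± 0.10 and passed neither test (adjusted p 0.219 and 0.131). Kcna1, its close relative, rose by 0.63 ± 0.07 and 0.71 ± 0.29 (adjusted p 0.0123 and 0.00625), but at a level of 6.10 ± 0.23 in GFP+ cells after octanoic acid and 6.09 ± 0.24 after clean air, at background, so no fold is given.

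Kcnc4, is a fast-inactivating Kv3 pore. It read 16.41, 16.28, 16.25 and 16.46 in GFP+ and 16.02, 16.11, 15.82 and 15.89 in GFP- cells after octanoic acid, and 16.33, 16.20, 16.45 and 16.38 in GFP+ and 16.07, 15.78, 15.94 and 15.44 in GFP- cells after clean air. The GFP+ arrays lay above the GFP- arrays under both treatments. With clean air Kcnc4 rose by 0.54 ± 0.29 (1.45-fold, adjusted p 0.037), a call lost without any of 5 single pools (adjusted p 0.0515 to 0.187), and with octanoic acid the difference was 0.39 ± 0.16 (adjusted p 0.111). Kcnc2, a Kv3 pore of fast-firing neurons, rose by 0.51 ± 0.22 with octanoic acid (adjusted p 0.0299), at background in every group, and lost the call without octanoic acid pool 1, 2 or 4 (adjusted p 0.0522 to 0.130).

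**Figure D3:**
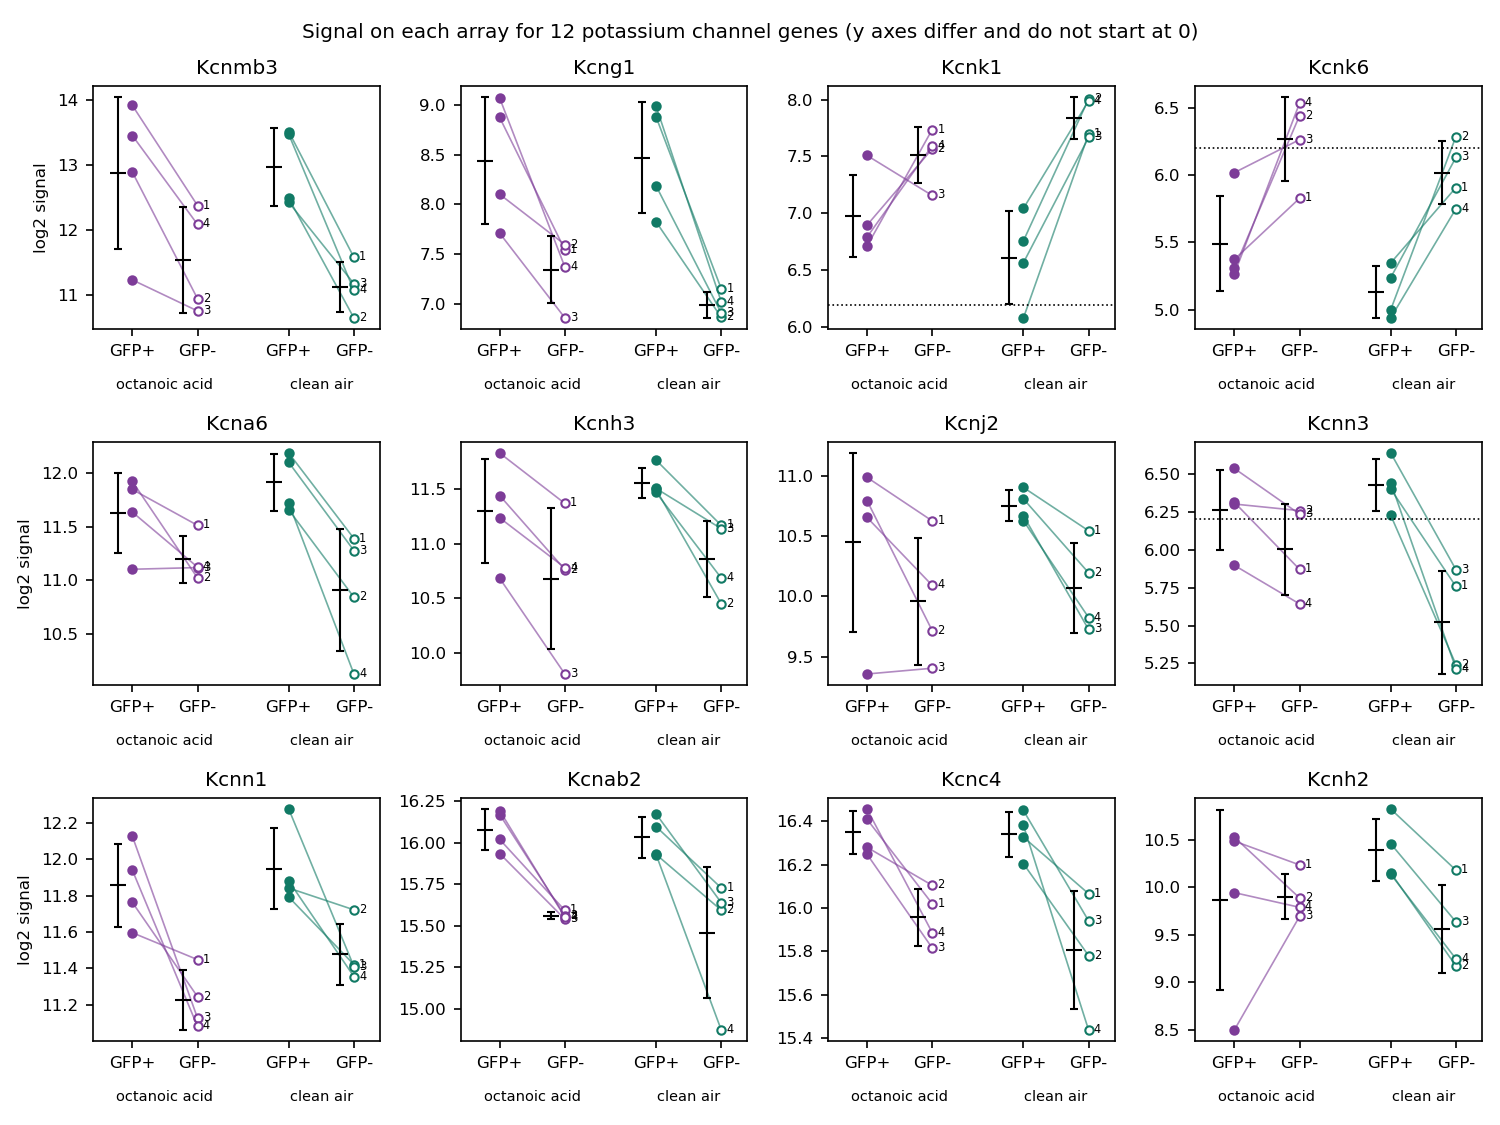
Log2 signal (y axis, scaled for each gene) of 12 members on every array, with GFP+ and GFP- samples of a pool joined by a line and labelled with the pool number. Bars are mean ± SD of 4 pools and the dotted line is the background of 6.20. Kcng1, Kcnn1, Kcnab2 and Kcnc4 separate GFP+ from GFP- arrays under both treatments.

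Of the 8 ether-a-go-go genes, 1 rose with octanoic acid and 3 with clean air. Kcnh3, a pore of the ELK group that is active near rest, read 11.83, 11.44, 10.68 and 11.24 in GFP+ and 11.37, 10.76, 9.81 and 10.78 in GFP- cells after octanoic acid. After clean air the values were 11.77, 11.50, 11.51 and 11.47 in GFP+ and 11.17, 10.45, 11.14 and 10.69 in GFP- cells. Each pool was higher in GFP+ cells, and the groups were apart with clean air only. Kcnh3 rose by 0.62 ± 0.20 (1.53-fold, adjusted p 0.0184) with octanoic acid and by 0.70 ± 0.29 (1.62-fold, adjusted p 0.00939) with clean air. Leaving out octanoic acid pool 3 took the octanoic acid call away (0.53, adjusted p 0.0749), and leaving out clean air pool 2 the clean air call (0.58, adjusted p 0.0663). A fit without the pairing within pools took both away (adjusted p 0.169 and 0.128). Kcnh4, another ELK pore, averaged 14.64 ± 0.41 in GFP+ and 14.30 ± 0.21 in GFP- cells after octanoic acid (adjusted p 0.138). After clean air it averaged 14.78 ± 0.16 and 14.26 ± 0.28, a rise of 0.53 ± 0.13 (1.44-fold, adjusted p 0.0296) that was lost without any 1 of the 4 clean air pools (adjusted p 0.0575 to 0.115) and without the pairing (0.10).

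Kcnh2, the ERG pore that repolarises heart muscle and damps firing in neurons, read 10.48, 10.53, 8.50 and 9.94 in GFP+ and 10.23, 9.89, 9.69 and 9.79 in GFP- cells after octanoic acid, and 10.82, 10.15, 10.46 and 10.14 in GFP+ and 10.18, 9.17, 9.64 and 9.25 in GFP- cells after clean air. The arrays overlapped under both treatments, and GFP+ octanoic acid pool 3 was the lowest of all 16. Kcnh2 rose by 0.83 ± 0.14 with clean air (1.78-fold, adjusted p 0.0405). This call was lost without any of 6 single pools (adjusted p 0.0513 to 0.136) and without the pairing (0.142). Octanoic acid pool 3 also enters the spread used for the clean air test. Without that pool the clean air difference was 0.83 with an adjusted p of 0.00238. With octanoic acid the difference was -0.04 ± 0.80 (adjusted p 0.936), and 0.35 without pool 3 (adjusted p 0.215). Of the KCNQ channels, Kcnq1, a pore of epithelia and heart, was the only one above background in all groups, with differences of 0.06 ± 0.56 and 0.15 ± 0.43, and none of the 3 passed the test. The noncoding Kcnq1ot1 differed by 0.61 ± 0.48 with octanoic acid and -0.20 ± 1.04 with clean air and passed neither test.

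Of the calcium- and sodium-activated channels, Kcnn1 encodes a small-conductance (SK) pore that carries the afterhyperpolarisation following a spike. It read 11.60, 11.76, 12.13 and 11.94 in GFP+ and 11.45, 11.24, 11.13 and 11.08 in GFP- cells after octanoic acid, and 11.79, 11.84, 12.28 and 11.88 in GFP+ and 11.42, 11.72, 11.41 and 11.36 in GFP- cells after clean air. The groups did not overlap under either treatment. Kcnn1 rose by 0.63 ± 0.38 with octanoic acid (1.55-fold, adjusted p 0.0331), a call lost without octanoic acid pool 2, 3 or 4 (adjusted p 0.0555 to 0.140), and differed by 0.47 ± 0.31 with clean air (adjusted p 0.113). Kcnn3, also an SK pore, lay close to background, with 6.31, 6.30, 6.54 and 5.90 in GFP+ and 5.87, 6.26, 6.24 and 5.64 in GFP- cells after octanoic acid. After clean air it read 6.40, 6.23, 6.64 and 6.44 in GFP+ cells, against 5.76, 5.24, 5.87 and 5.21 in GFP- cells, which were all below background. Kcnn3 rose with clean air by 0.91 ± 0.26 (adjusted p 0.00124), at least 1.17-fold when the GFP- level is taken as background. Its octanoic acid difference was 0.26 ± 0.17 (adjusted p 0.274). With negative-control centring the clean air value was 0.78 and its adjusted p 0.0521. Kcnt1, a sodium-activated pore, and Kcnu1, a pore best known from sperm, passed neither test, with differences of -0.28 ± 0.33 and 0.09 ± 0.28 for Kcnt1 and -0.02 ± 0.61 and 0.56 ± 0.35 for Kcnu1. For Kcnu1 the clean air adjusted p was 0.127, and 0.0459 without octanoic acid pool 3. Kcnt1 with negative-control centring was -0.74 with octanoic acid (adjusted p 0.0364).

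Among the 15 inward rectifiers, which pass potassium most readily near the resting potential, 1 rose and 1 fell with clean air, and 1 fell with octanoic acid. Kcnj2, a strong rectifier that holds cells near rest, read 10.99, 10.79, 9.36 and 10.65 in GFP+ and 10.63, 9.72, 9.40 and 10.09 in GFP- cells after octanoic acid. After clean air Kcnj2 read 10.90, 10.81, 10.67 and 10.63 in GFP+ and 10.54, 10.20, 9.73 and 9.82 in GFP- cells. The groups were apart with clean air and overlapped with octanoic acid, where both arrays of pool 3 were low. Kcnj2 rose by 0.68 ± 0.25 with clean air (1.60-fold, adjusted p 0.0297), a call lost without clean air pool 2, 3 or 4 (adjusted p 0.0838 to 0.129) and without the pairing within pools (0.187). Its octanoic acid difference was 0.49 ± 0.47 (adjusted p 0.103), and 0.67 without octanoic acid pool 3 (adjusted p 0.0433). Kcnj5, a subunit of the G protein-gated rectifiers, averaged between 7.11 and 7.20 in the 4 groups and passed neither test.

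The members lower in GFP+ cells were mostly dim. Kcnk1, a tandem-pore leak channel of the TWIK group, was the only one of them above background in every group. Its group means, 6.61 to 7.84, lay below 10.4, the 95th percentile of the controls. In GFP+ cells after octanoic acid Kcnk1 read 6.71, 6.90, 7.51 and 6.79, against 7.74, 7.57, 7.16 and 7.59 in GFP- cells, and pool 3 alone was higher in GFP+. In GFP+ cells after clean air it read 6.08, 6.76, 6.57 and 7.04, against 7.70, 8.0, 7.67 and 7.99 in GFP- cells. The clean air groups did not overlap. Kcnk1 fell by 1.23 ± 0.29 on the log2 scale with clean air (2.34-fold lower, adjusted p 0.00189), a call kept in all 17 alternative settings. With octanoic acid the difference was -0.54 ± 0.61 (adjusted p 0.119), and without pool 3 it was -0.83 (adjusted p 0.00954). With negative-control centring it was -0.99 (adjusted p 0.00752).

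The same window before the start of Kcnk1, at chr8:125994852-125995151 on the plus strand of GRCm38.p6 in the RefSeq table, is shown as that of the member that fell while above background, with its 10 CG pairs in capitals.
Kcnk1: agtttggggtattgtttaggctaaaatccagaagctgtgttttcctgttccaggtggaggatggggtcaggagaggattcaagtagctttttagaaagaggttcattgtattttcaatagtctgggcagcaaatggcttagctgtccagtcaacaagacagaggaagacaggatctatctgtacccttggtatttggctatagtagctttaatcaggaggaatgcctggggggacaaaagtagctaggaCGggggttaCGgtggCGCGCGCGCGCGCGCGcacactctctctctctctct
All 10 of its CG pairs lie at the annotated start or after it, whereas those of Kcnmb3 are spread along the window.

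Kcnk6, of the same TWIK group and known from endosomes and immune cells, read 5.37, 5.31, 6.02 and 5.27 in GFP+ and 5.83, 6.44, 6.26 and 6.53 in GFP- cells after octanoic acid, and 5.35, 5.0, 5.24 and 4.94 in GFP+ and 5.91, 6.29, 6.13 and 5.75 in GFP- cells after clean air. Only 4 of its 16 arrays were above background, all from GFP- cells. Kcnk6 fell by 0.78 ± 0.50 with octanoic acid (adjusted p 0.019) and by 0.89 ± 0.30 with clean air (adjusted p 0.00912). Without octanoic acid pool 2 or 4 the octanoic acid call was lost (adjusted p 0.0715 to 0.109), and without clean air pool 2 the clean air call was lost (adjusted p 0.0608). Kcnk5, an acid-sensitive leak channel of epithelia, averaged 5.0 ± 0.55 in GFP+ and 5.49 ± 0.32 in GFP- cells after octanoic acid (adjusted p 0.101). After clean air it averaged 4.45 ± 0.24 and 5.77 ± 0.20, and it fell by 1.33 ± 0.26 (adjusted p 0.000324). Kcnn4, the intermediate-conductance calcium-activated channel of lymphocytes and red cells, fell by 1.12 ± 0.61 and 1.01 ± 0.17 (adjusted p 0.00266 and 0.00555), with GFP- means of 5.77 and 5.49. Kcnj3, a G protein-gated inward rectifier subunit, fell by 0.80 ± 0.44 and 1.36 ± 0.44 (adjusted p 0.0193 and 0.000584), with GFP- means of 4.47 ± 0.24 and 5.05 ± 0.38. Its octanoic acid call was lost without octanoic acid pool 1, 3 or 4 (adjusted p 0.0752 to 0.0880). These 4 genes lay at or near background in GFP+ and GFP- samples, so no fold is given.

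Several markers of other cells were also lower in GFP+ than in GFP- samples, and no association of these markers with the members was computed. The summed signal of the 9 leukocyte markers ranged from 9.69 to 11.6 (log2) in GFP+ and 15.9 to 17.6 in GFP- arrays after octanoic acid, and from 9.61 to 11.2 in GFP+ and 15.4 to 16.8 in GFP- arrays after clean air, with no marker at background in all groups. That of the 8 microvillous and tuft cell markers ranged from 9.44 to 10.2 in GFP+ and 11.9 to 12.5 in GFP- arrays after octanoic acid, and from 9.08 to 9.73 in GFP+ and 11.8 to 12.4 in GFP- arrays after clean air, with Chat alone at background. Of the 6 pericyte and smooth muscle markers, Abcc9, Acta2, Cspg4 and Myh11 were at background and 1 fell under each treatment: Rgs5 fell by 3.62 ± 0.50 with octanoic acid and by 4.19 ± 0.57 with clean air. The summed signal of these 6 ranged from 8.39 to 8.54 in GFP+ and 10.4 to 11.3 in GFP- arrays after octanoic acid, and from 7.86 to 8.42 in GFP+ and 10.0 to 11.7 in GFP- arrays after clean air. All 5 endothelial markers were at background, and 2 of them fell with octanoic acid, Pecam1 by 0.70 and Tek by 0.62. The part of these cells in the values of Kcnk1, Kcnk5, Kcnk6, Kcnn4 and Kcnj3 was not tested.

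Kcnk10, a mechanosensitive leak channel of the TREK group, lay far above background with little difference between the samples. It averaged 13.74 ± 0.35 in GFP+ and 13.80 ± 0.13 in GFP- cells after octanoic acid and 13.71 ± 0.09 and 13.86 ± 0.35 after clean air, with differences of -0.07 ± 0.32 and -0.15 ± 0.35 (adjusted p 0.836 and 0.635). Kcnk4, of the same group, differed by 0.50 ± 0.61 and 0.18 ± 0.12 and passed neither test. Kcnk7 differed by 0.48 ± 0.29 and 0.24 ± 0.33 and passed neither test (adjusted p 0.083 and 0.421). Of the 14 tandem-pore genes, 1 fell with octanoic acid and 3 with clean air, and none rose.

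Whether octanoic acid changed any of these genes relative to clean air was asked in 3 ways: as the change in the within-pool difference, in GFP+ cells and in GFP- cells. No member and no other gene passed limma's adjusted threshold in any of the 3, so the background share was 0%. At an unadjusted p below 0.05 in limma, 4 members (4.49%, against 4.47% of all genes) stood out in the within-pool difference. There were 2 (2.25%, against 3.67%) in GFP+ cells and 3 (3.37%, against 3.8%) in GFP- cells. Each share rests on few members and was near its background. The 4 in the within-pool difference were Kcnk5 (octanoic acid minus clean air 0.84 ± 0.26 SE, p 0.00795), Kcnn3 (-0.65 ± 0.21, p 0.0112), Kcnh2 (-0.87 ± 0.35, p 0.0287) and Kcnk1 (0.69 ± 0.31, p 0.0446), each with an adjusted p of 0.94 in limma. For these 4 genes the GFP+ minus GFP- difference was smaller in size with octanoic acid than with clean air. Without octanoic acid pool 3 the Kcnh2 value was -0.49. In GFP+ cells Kcnip1, a binding partner of Kcnd pores, was 0.47 higher and Kcnf1, a silent subunit, 0.42 higher after octanoic acid, both at background (adjusted p 0.955). In GFP- cells Kcnj3 was 0.58 lower, Kcnq1ot1 0.90 lower and Kcnn3 0.48 higher (adjusted p 0.985).

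**Figure D4:**
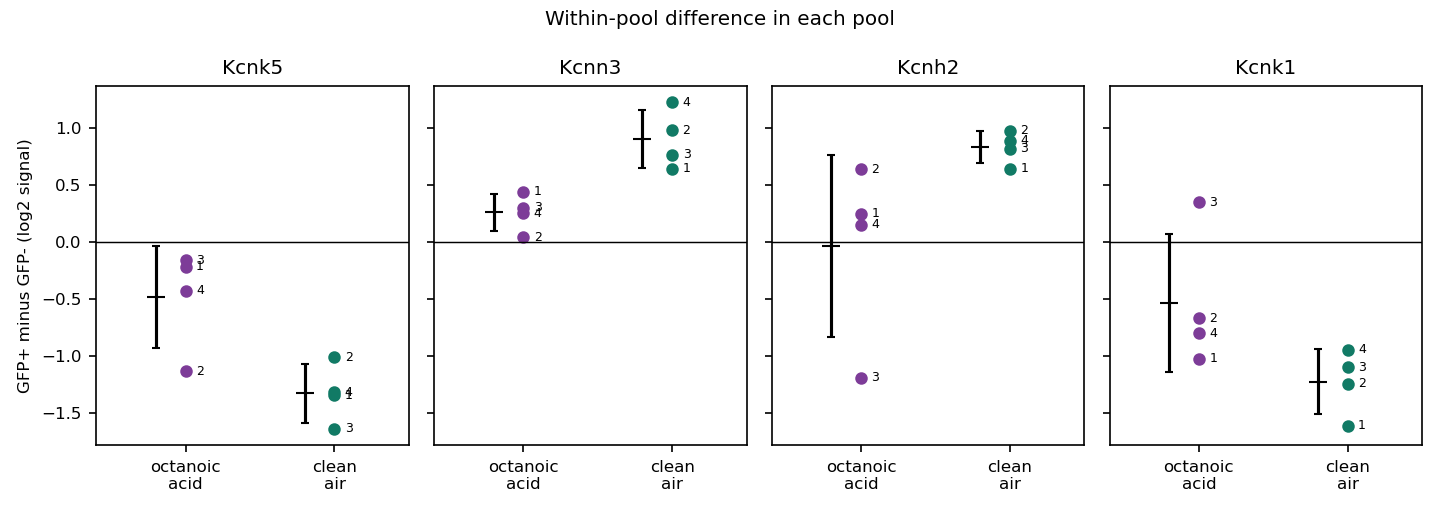
GFP+ minus GFP- difference in log2 signal (y axis) in each pool, labelled with its number, for 4 members. They had the smallest unadjusted p for octanoic acid against clean air in the within-pool difference. Bars are mean ± SD of 4 pools. The octanoic acid values of Kcnh2 and Kcnk1 include pool 3 on the far side of 0 from the clean air pools.

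Between treatments the arrays of GFP+ cells did not overlap for 2 members that were higher after octanoic acid, Kcne1 and Kcnf1 (2.25%, against 1.24% of all genes), and for 0 that were lower (against 1.05%). In GFP- cells they did not overlap for 1 that was higher, Kcnf1 (1.12%, against 1.17%), and 1 that was lower, Kcnj3 (1.12%, against 1.09%). The 2 genes with the largest differences between sorted samples gave octanoic acid minus clean air values of -0.52 ± 0.34 (SE) for Kcnmb3 and -0.39 ± 0.31 for Kcng1 in the within-pool difference. In GFP+ cells alone they gave -0.10 ± 0.51 for Kcnmb3 and -0.03 ± 0.35 for Kcng1. The median SE over the members was 0.266 for the within-pool difference, 0.203 in GFP+ and 0.199 in GFP- cells, which sets the size of change that 4 pools against 4 could resolve.

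Proteins that work with potassium channels without a Kcn symbol were mostly dim. Of 11 such partners, 10 were at or below background in all groups, 1 rose with octanoic acid and 1 with clean air. The 1 above background was Amigo1, a partner of Kcnb pores, which rose by 0.76 with clean air (adjusted p 0.0485) and differed by 0.19 with octanoic acid. Lrrc55, a BK partner at background, rose by 0.77 with octanoic acid (adjusted p 0.0459). The list's median differences were 0.19 and 0.26, against 0.11 for all genes under each treatment. Of 21 measured genes for potassium, sodium and chloride transport outside the family, 2 rose and 3 fell with octanoic acid, and 4 rose and 3 fell with clean air, with medians of 0.17 and 0.20. Beside the counts of both lists, the all-gene shares were 6.26% higher and 10.9% lower with octanoic acid. With clean air they were 5.83% higher and 9.58% lower. Neither list was tested as a set. Fxyd2, the small subunit that tunes the sodium-potassium pump, averaged 11.10 ± 0.93 in GFP+ and 7.41 ± 0.19 in GFP- cells after octanoic acid and 11.12 ± 0.82 and 7.30 ± 0.53 after clean air, a rise of 3.69 ± 0.76 (12.9-fold) and 3.83 ± 0.54 (14.2-fold). Fxyd6, a relative, fell by 1.30 ± 0.41 and 1.51 ± 0.82, and the pump beta subunit Atp1b3 fell by 0.78 with octanoic acid and by 0.75 with clean air. Atp1b2, another beta subunit, fell by 1.34 and 0.94, with GFP+ and GFP- means at or near background. Slc24a2, a potassium-dependent sodium-calcium exchanger, rose by 0.51 and 0.75. Slc24a4, the exchanger of olfactory neurons, rose by 0.87 with clean air and differed by 0.43 with octanoic acid, and Hcn2, a pacemaker channel that also passes potassium, rose by 0.73 with clean air and differed by 0.21 with octanoic acid.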

How the data were processed

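RNA from sorted cells was hybridised to 16 Clariom S arrays, 8 pools with a GFP+ and a GFP- sample each. The authors deposited one table of log2 signals for 28846 probe sets, made with Affymetrix Expression Console, per the submitters' processing notes. That the scale is log2 follows from the values (2.13 to 19.5), and the background and summary steps are not given in the sources used here. The values were used as deposited. Probe sets were named from the platform annotation: 19572 had 1 symbol, 2634 that are not controls had no single name, and 67 dimmer duplicates were dropped. The number of arrays limits the precision.

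Differences between the 2 samples of a pool were fitted with limma 3.58.1 (lmFit and eBayes, R 4.3.3) over 19505 genes, with octanoic acid and clean air means and their difference as coefficients, and octanoic acid was set against clean air in GFP+ and in GFP- arrays separately. P-values were Benjamini-Hochberg adjusted over all genes at a threshold of 0.05. They weigh each mean difference against a spread between pools, not between mice. For the GFP+ minus GFP- differences a single spread per gene was estimated from the pools of both treatments, and eBayes adjusted it using all genes. Leaving out a pool of one treatment can therefore change a call under the other. A fold is a lower bound where the dimmer group did not exceed background by its own SD, and is left out where neither group did. The script was tested on simulated data. Members called under either treatment were named, with the 12 of largest mean difference above background given array by array, together with the bright members that were not called. The members, the gene lists and this rule were chosen with earlier results of these data known. Same-numbered pools of the 2 treatments deviated together (r 0.179, 0.110, 0.237 and 0.100 for the differences of numbers 1 to 4), so the replicate number was tried as a block. For GFP+ arrays r was 0.100 to 0.371 and for GFP- arrays -0.0986 to 0.408. Alternatives were other scalings, filters, left-out pools, robust eBayes and centring on the negative controls, the last chosen after seeing the data.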

Additional observations from a re-analysis of the deposited data

Results flagged for a closer look

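Within groups of 4 values, 7 of the 108 checked for the 18 called members held a value far from the other 3, by Dixon's test of the gap over the range, and chance marks about 1 in 20 such groups. In GFP+ cells after octanoic acid, pool 3 stood apart for Kcna1, at 6.44 (others 5.94 to 6.01), and for Kcnk6, at 6.02 (others 5.27 to 5.37). In GFP+ cells after clean air, pool 1 stood apart for Kcnh3, at 11.77 (others 11.47 to 11.51). In GFP- cells after clean air, pool 4 was low for Kcnab2, at 14.87 (others 15.59 to 15.73), and pool 3 was high for Kcnj3, at 5.62 (others 4.82 to 4.88). The clean air GFP+ minus GFP- difference of Kcna6 was 1.60 in pool 4 (others 0.80 to 0.83), and that of Kcnh4 was 0.34 in pool 1 (others 0.57 to 0.60).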

How the results depend on the processing

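Of 26 member calls between GFP+ and GFP- cells, 13 held without any single pool and 13 were lost without at least 1. Members called higher with octanoic acid (7) numbered 46 with median centring, 12 with quantile normalization, 4 with values raised to background, 4 with octanoic acid pool 3 and clean air pool 4 left out, 0 with negative-control centring, and 4 to 7 with single pools left out. Those called lower (3) numbered 1 with median centring, 0 among genes above background, 0 with values raised to background, 10 with negative-control centring, and 1 to 3 with single pools left out. With clean air, those higher (11) numbered 42 with median centring, 7 with values raised to background, 7 with no replicate block between the 2 samples of a pool, 3 with negative-control centring, and 6 to 12 with single pools left out. Those lower (5) numbered 1 among genes above background, 1 with values raised to background, and 4 to 6 with single pools left out. The all-gene counts follow in the same order of settings. With octanoic acid, those higher (1221) were 7791, 2587, 693, 821, 304, and 621 to 1310. Those lower (2126) were 1715, 1689, 1395, 3479, and 1666 to 2077. With clean air, genes called higher (1138) were 6082, 817, 891, 463, and 619 to 1282, and genes called lower (1868) were 1438, 1144, and 1514 to 1920. Beyond the number of genes tested, the cause of these shifts was not tested. The octanoic acid against clean air counts stayed at 0 members in limma under every setting run, the replicate block across treatments included (smallest adjusted p among all genes 0.781, 0.826 and 0.915). That block was run for these 3 comparisons only, in which it changed no member call. Signals near background limit what can be said of the 60 dim members.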
